A study of Mus musculus with 8 samples.

Results

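The interferon regulatory factors are a family of transcription factors, and their messenger RNAs were followed here in sorted mouse B cells for all named members other than Irf4. Members were chosen as every probe set (a group of array probes for 1 transcript) whose annotation names exactly 1 gene among Irf1, Irf2, Irf3, Irf5, Irf7, Irf8 and Irf9. This gave 8 of 12488 probe sets, for 6 of the 7 genes among 8252 genes named on the array, with 2 probe sets each for Irf3 and Irf7 and 1 each for Irf1, Irf5, Irf8 and Irf9. Irf2 was not analysed here. Total RNA from 8 pools of cells was hybridised to Affymetrix arrays, 2 arrays for each of 4 groups, and each pool held cells of 4 to 10 F1 mice of the QM and B6 strains. QM mice carry a rearranged antibody heavy chain gene that favours binding of the hapten NP.

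Resting B cells were B220-positive and GL7-negative cells of unimmunised mice. The other 3 groups were germinal centre B cells, sorted as B220-positive and GL7-positive. The first of them (TI d4, d for day) was sorted 4 days after 30 µg of NP-Ficoll, an antigen that needs no T cell help. The TD d4 mice had been primed with 50 µg of alum-precipitated chicken gamma-globulin and heat-killed B. pertussis. After 5 weeks they received 50 µg of NP-CGG (NP on that carrier) in soluble form, and cells were sorted 4 days after that challenge. The TD d10 group was sorted 10 days after a single immunisation with 50 µg of alum-precipitated NP-CGG and heat-killed B. pertussis. Antigen form, adjuvant, priming and day thus differ together between some groups, and all injections were intraperitoneal. The labels name no organ.

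The factors share an amino-terminal DNA-binding domain that recognises repeats of GAAA, as in the interferon-stimulated response element of antiviral genes. IRF9 is the DNA-binding subunit of a complex that type I interferon activates, IRF1 is itself induced by interferon gamma, and IRF3, IRF5 and IRF7 are activated by phosphorylation downstream of nucleic acid sensors and Toll-like receptors. IRF8 pairs with the Ets factors PU.1 and Spi-B in B cells and takes part in germinal centre gene expression.

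The 250 bases before the annotated start farthest upstream are shown for the 2 members called against resting in every germinal centre group, Irf1 and Irf9, and for Irf8, whose difference was closest to 0. They are RefSeq sequences of build GRCm38.p6, given 5′ to 3′ on the plus strand, which is the strand of all 3 genes. Capitals mark matches to any of 4 motifs searched on both strands: the interferon-stimulated response element core (GAAA, any 2 bases, GAAA), the gamma-activated sequence bound by STAT factors (TTCNNNGAA), the Ets-IRF composite element (GGAA, any 2 bases, GAAA) and the NF-kB consensus.
Irf1, chr11:53769764-53770013: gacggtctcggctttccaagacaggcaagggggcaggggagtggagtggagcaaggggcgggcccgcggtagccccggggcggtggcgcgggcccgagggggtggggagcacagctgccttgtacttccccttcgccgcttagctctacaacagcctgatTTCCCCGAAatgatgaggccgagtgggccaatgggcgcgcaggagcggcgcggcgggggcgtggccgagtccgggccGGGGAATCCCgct
Irf9, chr14:55603735-55603984: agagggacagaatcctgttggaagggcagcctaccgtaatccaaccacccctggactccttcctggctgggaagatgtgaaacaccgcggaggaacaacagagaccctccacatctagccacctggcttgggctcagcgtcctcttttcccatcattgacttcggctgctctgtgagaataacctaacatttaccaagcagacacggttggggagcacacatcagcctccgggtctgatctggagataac
Irf8, chr8:120736108-120736357: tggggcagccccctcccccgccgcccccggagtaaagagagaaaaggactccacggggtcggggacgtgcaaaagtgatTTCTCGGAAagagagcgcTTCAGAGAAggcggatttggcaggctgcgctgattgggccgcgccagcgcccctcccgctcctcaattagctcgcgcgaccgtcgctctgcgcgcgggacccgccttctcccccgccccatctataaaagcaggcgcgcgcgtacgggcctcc

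The Irf1 window held 1 gamma-activated sequence, 90 to 82 bases before the start, and an NF-kB match, 13 to 4 bases before it, that reads as a match on both strands. The Irf8 window held 2 gamma-activated sequences. The Irf9 window held none of the 4 motifs. RefSeq lists 2 starts for each of these 3 genes, and the windows before the other start held 0 matches. Among all 32851 RefSeq promoter windows of 250 bases, 7.02% held a gamma-activated sequence, 7.25% the NF-kB consensus, 2.98% the response element core and 2.30% the composite element. A match describes letters and shows no binding.

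The median intensity of an array was 77 to 89, and the floor used for log2 values, the median of all deposited values, was 81. Of 9 measured B cell markers, among them Cd79a, Ms4a1 and Pax5, 0 were at or below that floor on both arrays of any group. The sum over 9 germinal centre markers was 5468 to 6665 in resting, 9780 to 10747 in the TD groups and 6583 to 7086 in TI d4, where it overlapped resting. Of 8 tested, 3 rose in TI d4 against resting (Bcl6, Mki67 and Ezh2) and 1 fell (Lmo2), beside 5.42% and 3.98% of all probe sets. Gcsam read 156 and 131 there against 154 and 101 in resting. Fas is in the sum but was left out of the test as a control probe set. It read 144 and 69 in resting, 404 to 433 in the TD groups and 232 and 233 in TI d4. Signal of other cells differed with the groups, given here as sums of intensities with negative values counted as 0. The sum over 10 neutrophil markers was 6542 to 6675 in resting and 1734 to 2823 in the germinal centre groups. The sum over 13 macrophage markers was 5550 to 5783 in resting, 3438 to 4371 in the TD groups and 7172 to 8530 in TI d4. Apoe alone read 4213 and 3371 in TI d4, and without it, a choice made after its values were seen, the sum was 4775 to 5349 in resting, 2762 to 3521 in the TD groups and 3801 to 4317 in TI d4. The sum over 5 plasma cell markers was 1919 to 1965 in resting, 2581 to 3932 in the TD groups and 9726 to 12923 in TI d4. Most of it in TI d4 was Jchain (7347 and 9356) and Xbp1 (2072 and 2951). Irf4 read 125 and 516 there against 292 and 511 in resting, and Prdm1 and Sdc1 were too low to be tested. The sum over 5 NK cell markers was 1074 to 1095 in resting and 565 to 789 elsewhere. The sum over 4 plasmacytoid dendritic cell markers was 9232 to 10192 in resting and 1628 to 2466 elsewhere, most of it Ly6d, which B-lineage cells also express. The sum over 5 red cell markers was 23117 to 25570 in resting and 808 to 2884 elsewhere. Slc4a1 of this list went the other way in TI d4, with 1700 and 2317 against 724 and 707 in resting. In such bulk samples, fewer cells of a type and less RNA per cell cannot be told apart.

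Irf9, the DNA-binding subunit of the interferon-activated complex, had the largest difference among the members. Irf9 (chromosome 14, 55603985 to 55610030) read 636 and 488 in resting, 10 and 106 in TD d4, 21 and 111 in TD d10, and 69 and 95 in TI d4. Both resting arrays lay above all 6 germinal centre arrays, where 1 array of each group was at or below the floor. Averaged over the germinal centre groups it was at least 6.08-fold lower than in resting (log2 difference -2.60 ± 0.21 SE, limma adjusted p = 0.0011). Set against resting group by group, the fall was at least 6.01-fold in TD d4, at least 5.88-fold in TD d10 and at least 6.35-fold in TI d4 (limma adjusted p = 0.0033, 0.0035 and 0.0029). All of these comparisons share the same 2 resting arrays.

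The size of this fall is a lower bound that moves with the floor. With the floor at the 60th percentile the log2 difference of the mean was -1.96, and with the floor at the 40th it was -3.03. In TI d4 the adjusted p was 0.074 with the 40th percentile as floor and 0.051 with a pseudocount of 64 in place of a floor. In TD d4 it was 0.052 with the 40th percentile as floor. Fitted on the compared arrays alone it was 0.057 in TD d4, 0.054 in TD d10 and 0.056 in TI d4. No array left out in turn ended an Irf9 call.

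Some myeloid transcripts fell as Irf9 did, and others did not. The neutrophil sum named above was lower than in resting in all 3 germinal centre groups. Of 7 tested neutrophil markers 3 fell in the germinal centre mean and 4 did not pass. Of 10 tested macrophage markers 3 fell (C1qa, C1qc and Vcam1) and 7 did not pass. Over all probe sets 5.50% fell. C1qc was tested only because both resting arrays were above the floor. Adgre1, Mrc1 and Marco were at or below the floor on every array, while Csf1r, C1qb, Cd14, Hmox1 and Apoe were above it on every array. In TI d4 5 of the 10 tested macrophage markers were below resting, with a median log2 difference of -0.01, and Apoe rose 6.50-fold. Without Apoe, left out after its values were seen, the macrophage sum was lower than in resting in all 3 germinal centre groups. The NK cell sum was lower there too, and so was the plasmacytoid dendritic cell sum, most of it Ly6d. Of 3 tested markers of the latter list only Ly6d fell in the mean. Tcf4 had a log2 difference of 0.40 and Klk1 of -0.19, and neither passed. The part of RNA from these other cells in the Irf9 difference, and in the other differences from resting given below, was not tested.

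Irf1, an activator induced by interferon gamma, also fell. Irf1 (chromosome 11, 53770014 to 53778374) read 1109 and 1238 in resting, 688 and 640 in TD d4, 660 and 735 in TD d10, and 588 and 506 in TI d4. Both resting arrays were above all others, and both TI arrays were below the lowest TD array. The mean fall was 1.85-fold (log2 difference -0.89 ± 0.14 SE, limma adjusted p = 0.0099). It was 1.77-fold in TD d4, 1.68-fold in TD d10 and 2.15-fold in TI d4 (limma adjusted p = 0.033, 0.040 and 0.012).

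The fall of Irf1 in the separate groups was less firm than in their mean. In TD d4 the adjusted p rose to 0.073 without the second resting array, to 0.12 or 0.15 without the first or second TD d4 array, and to 0.055 without either TD d10 array. In TD d10 it lay between 0.051 and 0.15 without any 1 array other than the first resting array. In TI d4 it was 0.063 without the second TI array. The replicate number as a block gave 0.071 in TD d4 and 0.083 in TD d10. Between TI d4 and TD d4 the log2 difference of Irf1 was -0.28 (95% interval -0.69 to 0.12), and between TI d4 and TD d10 -0.35 (-0.76 to 0.05). Neither passed (limma adjusted p = 0.56 and 0.36).

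**Figure D1:**
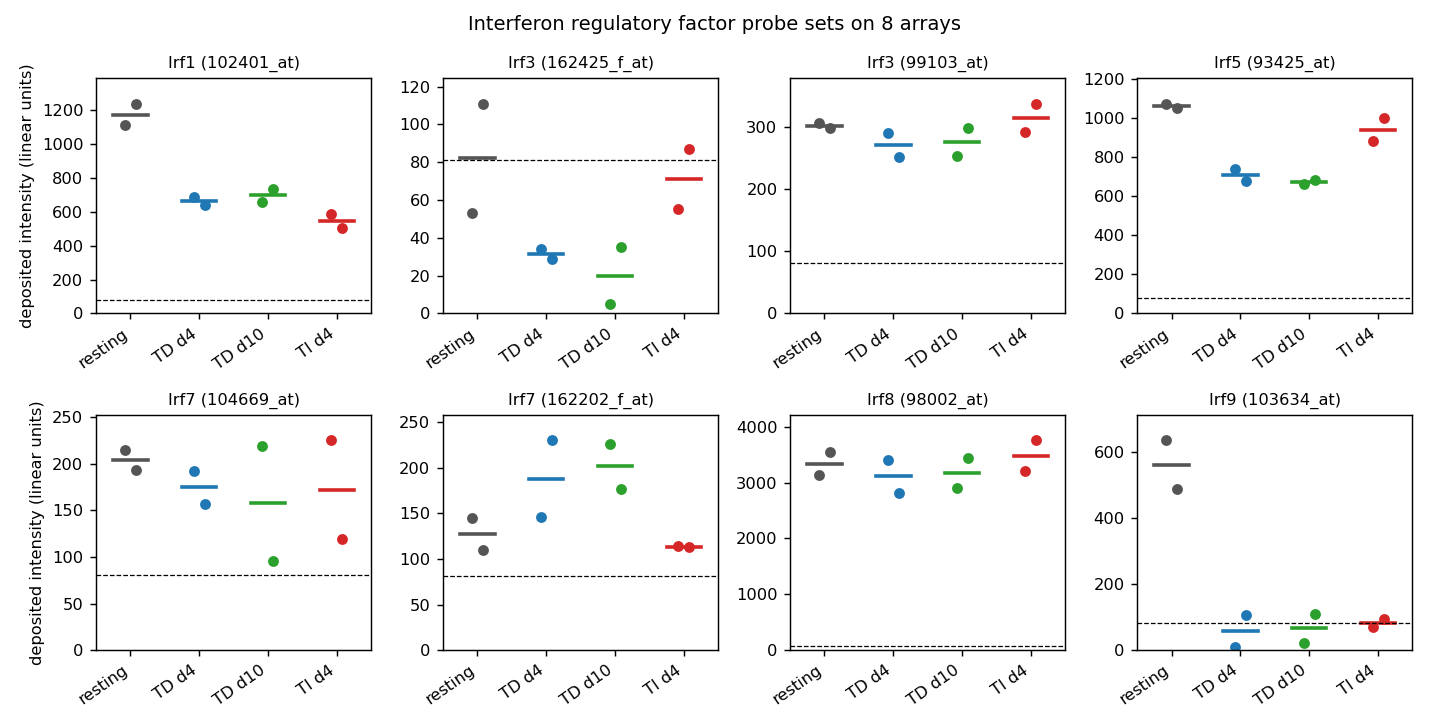
Deposited intensity (linear units, vertical axis from 0) of the 8 member probe sets in the 4 groups; points are the 2 arrays of a group, horizontal bars their mean, and the dashed line the floor of 81. Irf9 reads 488 to 636 in resting and at most 111 elsewhere, Irf1 is 1109 and 1238 in resting and at most 735 elsewhere, and Irf5 is lowest in the TD groups.

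Irf5, which acts downstream of Toll-like receptors, followed another order. Irf5 (chromosome 6, 29526130 to 29541869) read 1073 and 1052 in resting, 739 and 675 in TD d4, 662 and 683 in TD d10, and 880 and 999 in TI d4. Resting was highest, TI d4 came next and the TD groups were lowest, with no overlap between resting, TI d4 and the TD groups, while the TD groups overlapped each other. It fell 1.58-fold in TD d10 (log2 difference -0.66 ± 0.15 SE, limma adjusted p = 0.045). The log2 difference from resting was -0.59 ± 0.15 in TD d4 and -0.18 ± 0.15 in TI d4 (SE), and neither passed (limma adjusted p = 0.069 and 0.57).

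The TD d10 call of Irf5 was close to the threshold. It was lost without any 1 of the 8 arrays (adjusted p = 0.053 to 0.14) and with the replicate number as a block (0.093), and it was past the threshold in 5 of 20 alternatives. Irf5 read higher in TI d4 than in TD d4 by 0.41 on the log2 scale (95% interval 0.04 to 0.78) and than in TD d10 by 0.48 (0.11 to 0.85). With adjustment over all probe sets neither passed (limma adjusted p = 0.30 and 0.18). The Gapdh control probes give a ratio of 3′ over 5′ signal, a measure of RNA integrity, and the TI arrays had 1.24 and 1.68, against 0.836 to 0.981 on the TD arrays and 0.867 and 1.59 in resting. With this ratio as a covariate the log2 differences of Irf5 were 0.36 against TD d4 and 0.43 against TD d10 (limma adjusted p = 0.53 and 0.55).

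Irf8, the partner of PU.1, had the smallest difference between germinal centre and resting B cells. Irf8 (chromosome 8, 120736358 to 120756694) read 3129 and 3549 in resting, 3410 and 2818 in TD d4, 2899 and 3435 in TD d10, and 3209 and 3758 in TI d4. Every group overlapped every other. The log2 difference of the germinal centre mean from resting was -0.04 (95% interval -0.42 to 0.34), 0.04 after quantile normalization, and did not pass (limma adjusted p = 0.90). The 95% intervals of the separate groups against resting reached from -0.57 to 0.53, so changes within that range were not excluded with 2 arrays a group.

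Irf3, a latent factor activated by the kinase TBK1, is on chromosome 7 (44997648 to 45002848). Its probe set 99103_at read 307 and 298 in resting, 291 and 252 in TD d4, 254 and 299 in TD d10, and 292 and 338 in TI d4. The germinal centre range of 252 to 338 enclosed both resting arrays, and the log2 difference of the mean was -0.08 (95% interval -0.43 to 0.27). The other Irf3 probe set, 162425_f_at, was above the floor on 2 of 8 arrays, 1 resting and 1 TI d4, and gives no usable level.

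Irf7, which amplifies the interferon response, is also on chromosome 7 (141263183 to 141266499), and its probe sets differed. At 104669_at it read 215 and 193 in resting, 192 and 157 in TD d4, 219 and 96 in TD d10, and 225 and 119 in TI d4. The 2 arrays of TD d10 and of TI d4 were far apart there, and the interval of the germinal centre mean against resting, -1.25 to 0.56, was the widest among the members. At 162202_f_at it read 145 and 110 in resting, 146 and 230 in TD d4, 226 and 177 in TD d10, and 114 and 113 in TI d4. There the TI arrays lay below all TD arrays, with log2 differences of -0.69 (95% interval -1.36 to -0.02) against TD d4 and -0.82 (-1.49 to -0.15) against TD d10, and neither passed (limma adjusted p = 0.33 and 0.20). The other Irf7 probe set gave -0.09 and 0.17 in these 2 comparisons, so the order at 162202_f_at was not seen at both.

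Over the family, 2 of 8 member probe sets fell in the germinal centre mean and 0 rose, where 5.50% of all 7253 probe sets tested fell and 7.73% rose. In TD d4 2 fell (3.58% of all fell) and 0 rose (5.83%). For TD d10 these counts were 3 (4.44%) and 0 (6.45%). For TI d4 they were 2 (3.98%) and 0 (5.42%). With the arrays scaled to a common median, TD d10 had 364 of 756 calls higher over all probe sets, against 468 of 790. The median member log2 difference of the mean was -0.28, beside 0.00 over all probe sets tested. With 8 members these shares rest on Irf1, Irf9 and, in TD d10, Irf5.

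Groups that do not overlap are common with 2 arrays each. All 6 germinal centre arrays lay below both resting arrays at 3 members, Irf1, Irf5 and Irf9, as at 12.1% of all probe sets, and above them at 0 members (10.9% of all). With values under the floor set to it, TD d4 lay below resting at 5 of 8 members (23.6% of all) and above it at 1 (22.8%). TD d10 lay below resting at 3 (20.5%) and above it at 1 (25.9%). TI d4 lay below resting at 3 (23.0%) and above it at 0 (21.6%). The member above resting was Irf7 at 162202_f_at in both TD groups, and these shares are high over all probe sets too.

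Among the germinal centre groups 0 members passed. For TI d4 against TD d4 1.45% of all probe sets passed in limma, and 2 members, Irf5 and Irf7 at 162202_f_at, had an unadjusted p under 0.05. TI d4 lay above TD d4 at 2 members (21.3% of all) and below it at 2 (23.7%). Against TD d10 the background was 2.40%, and the same 2 members had an unadjusted p under 0.05. TI d4 lay above TD d10 at 1 member (19.6%) and below it at 2 (29.3%). The TD groups differed from each other at 0% of probe sets in limma, with 0 members at an unadjusted p under 0.05. TD d10 lay above TD d4 at 0 members (21.4%) and below it at 0 (14.8%).

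**Figure D2:**
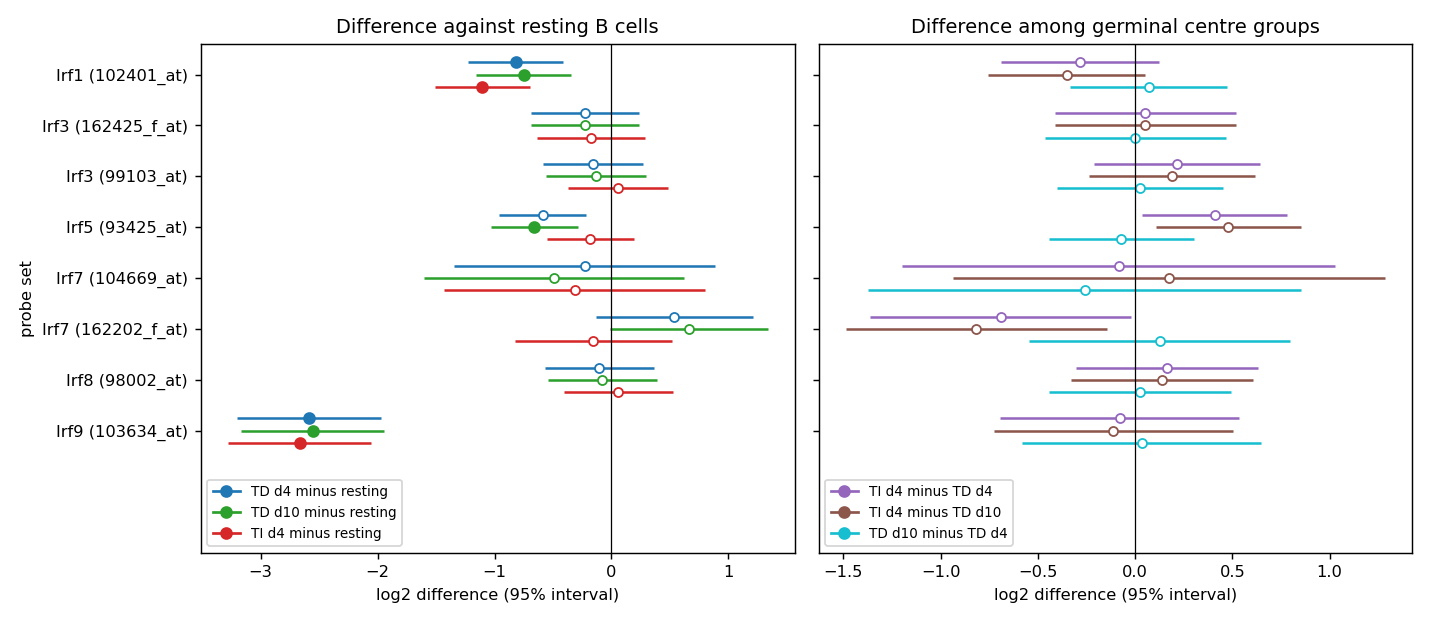
Log2 difference (horizontal axis) of each member probe set against resting (left) and among germinal centre groups (right), with bars for the 95% interval of the limma fit; filled points passed at an adjusted p of 0.05 over 7253 probe sets. Filled points are Irf9 and Irf1 in all 3 groups and Irf5 in TD d10, and none lies on the right.

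Upstream of IRF9, Ifnar2, a chain of the type I interferon receptor, was the 1 gene of 9 tested interferon receptor and JAK-STAT genes that fell, where 5.50% of all probe sets fell. Ifnar2 read 350 and 304 in resting, 60 and 112 in TD d4, 98 and 143 in TD d10, and 135 and 178 in TI d4. The mean fall was at least 2.71-fold (limma adjusted p = 0.011), with falls called in TD d4 (at least 3.42-fold) and TD d10 (2.76-fold) and 0 of the 9 genes called in TI d4. Without either resting array the count was 0. Jak1, Socs1 and Socs3, a kinase and feedback inhibitors of this pathway, had log2 differences of -0.58, -0.34 and -0.55 and did not pass. The list median was -0.30, beside 0.00 over all. Of 19 listed sensors, adaptors and kinases upstream of IRF3, IRF5 and IRF7, 8 had a probe set and 3 were tested, no sensor among them. Of these 0 passed, with log2 differences of -0.40 for Irak1, -0.0046 for Tbk1 and 0.32 for Tank. Unadjusted, 1 of these, Irak1, had a p under 0.05.

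Of 21 tested interferon-induced genes 4 fell in the germinal centre mean and 0 rose (backgrounds 5.50% and 7.73%). These were Rsad2, an antiviral enzyme (at least 2.31-fold), Ly6e (1.96-fold), the lysosomal thiol reductase Ifi30 (1.93-fold) and the ubiquitin ligase Trim25 (1.71-fold). Rsad2 read 180 and 194 in resting and 28 to 81 elsewhere, so it was tested only because both resting arrays were above the floor. The log2 difference was below 0 for 18 of the 21 genes, as for 49.6% of all probe sets, and the list median was -0.45. Mx1, Mx2, Irgm2 and Trim21 were among the 17 that did not pass. Without the second resting array 2 of the 21 were called. Several of the classical targets, Isg15, Ifit1, Ifit2 and Ifit3, were at or below the floor on all 8 arrays.

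Group by group, 4 of the 21 fell in TD d4 (3.58% of all probe sets), 5 in TD d10 (4.44%) and 2 in TI d4 (3.98%). Isg20, an exonuclease, was the 1 gene of the list called among germinal centre groups. It read 309 and 298 in resting, 119 and 139 in TD d4, 105 and 89 in TD d10, and 486 and 675 in TI d4. It was 4.45-fold higher in TI d4 than in TD d4 and 5.92-fold higher than in TD d10 (limma adjusted p = 0.014 and 0.0070). Of 3 tested plasma cell markers 1 was called higher in TI d4 than in TD d4, and 2 were called higher than in TD d10. Over all probe sets 1.45% and 2.40% passed in these comparisons, in either direction. Jchain, the joining chain of secreted antibody, was 3.31-fold higher in TI d4 than in TD d4 and 4.17-fold higher than in TD d10 (limma adjusted p = 0.021 and 0.0098). Against resting, Isg20 fell in both TD groups, while Jchain rose 3.20-fold in TD d4 and 2.54-fold in TD d10. The part of plasma cell RNA in the Isg20 difference was not tested.

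In the list of antigen presentation genes known as IRF1 targets, 1 of 9 rose and 0 fell in the mean, where 7.73% of all probe sets rose and 5.50% fell. The list median was -0.32, and 6 of the 9 were below 0. Psmb9, an immunoproteasome subunit whose gene IRF1 activates, read 641 and 764 in resting and 1000 to 1281 in germinal centre B cells, a 1.60-fold rise (limma adjusted p = 0.024). The count was 0 without the first resting array, without either TD d4 array or without the first TD d10 array, and 0 with the replicate number as a block. Tapbp and Ciita had log2 differences of -1.02 and -0.53 and did not pass (limma adjusted p = 0.053 and 0.082), and Psmb8 had 0.37.

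Among 14 partners and B cell targets of IRF8, 2 rose and 2 fell in the mean (7.73% and 5.50% of all probe sets), and Irf8 itself did not pass. Bcl6 was 2.72-fold higher and Mdm2, the ubiquitin ligase of p53, 2.11-fold higher (limma adjusted p = 0.0021 and 0.016). Mdm2 read 131 and 191 in resting and 278 to 407 in germinal centre B cells. Spib, an Ets partner, was 1.65-fold lower and Cd40 1.86-fold lower (limma adjusted p = 0.030 and 0.049). Spi1, which encodes PU.1, read 709 and 703 in resting and 414 to 634 elsewhere and was not among the calls. Rises and falls counted together, only 2 genes of the list were called with the replicate number as a block. Fewer were also called without the second resting, the second TD d4, either TD d10 or either TI d4 array.

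**Figure D3:**
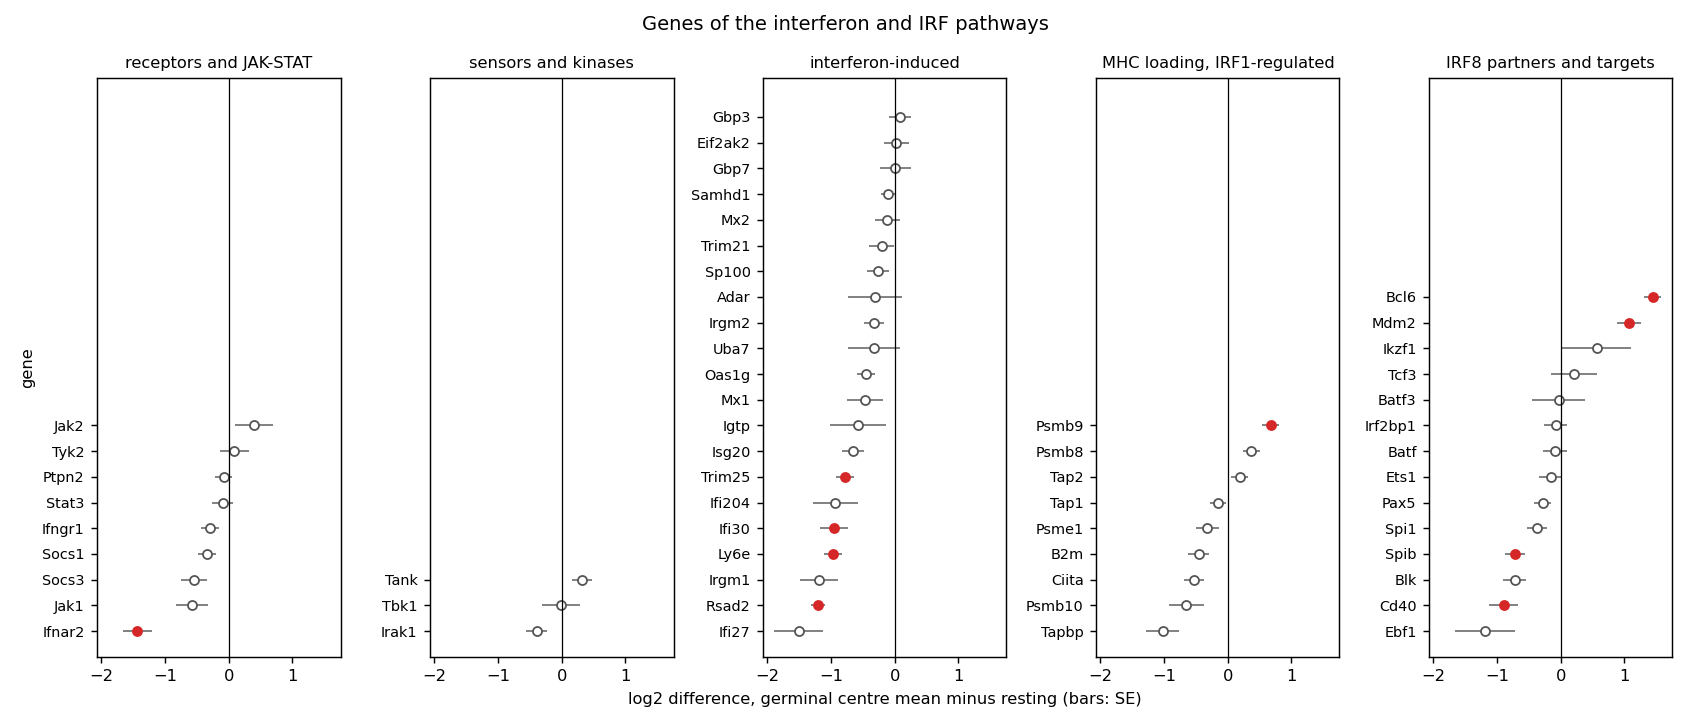
Log2 difference between the germinal centre mean and resting (horizontal axis, bars are the SE of the limma fit) for every tested gene of 5 lists; filled points passed at an adjusted p of 0.05. Of the interferon-induced genes 18 of 21 lie below 0 and 4 are filled, while the list of IRF8 partners spans from Bcl6 on the right to Cd40 and Ebf1 on the left.

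The genes whose profile over the 8 arrays was most like each called member were taken by Pearson's r on floored log2 values, as a description. For Irf9 they were Cfp (the complement factor properdin), Wars (a tryptophan-tRNA ligase) and Pglyrp1 (a peptidoglycan-binding protein of granulocytes), with r of 0.997, 0.994 and 0.993. Cfp read 668 and 532 in resting and 71 to 113 elsewhere. These profiles are set by the step from resting to all other arrays, and 2 or 3 of the 8 values of each of the 3 genes were at or below the floor. For Irf1 they were Stk10, Klc1 and Rflnb, with r of 0.983, 0.981 and 0.979, each with both resting arrays highest and the second TI array lowest. For Irf5 they were Cd302, Otub1 and Cd79b, with r of 0.975, 0.973 and 0.965. Of the 8 values of Cd302, 4 were at or below the floor, those of the TD arrays. Cd79b, a chain of the B cell receptor complex, read 10557 and 9614 in resting, 7653 and 7796 in TI d4, and 4979 to 5995 on the TD arrays, the order seen for Irf5.

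**Figure D4:**
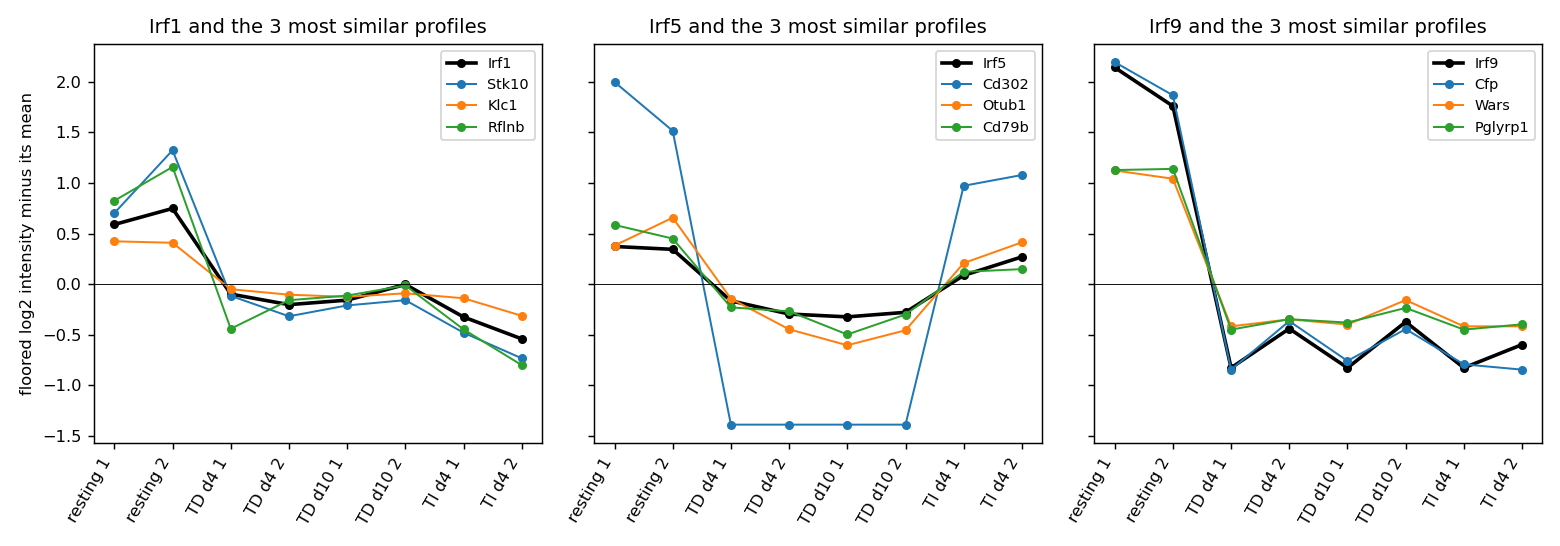
Floored log2 intensity minus its mean over the 8 arrays (vertical axis) for Irf1, Irf5 and Irf9 (black) and the 3 genes with the highest Pearson r to each (coloured); the horizontal axis lists the arrays by group. Irf9 and Cfp drop from resting to every other array. Irf5, Otub1, Cd79b and Cd302 are lowest on the 4 TD arrays, where Cd302 is at the floor.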

How the data were processed

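Gene expression was measured on 8 arrays, with biotin-labelled RNA extracted by RNAzol per the labels. As deposited, each value is a linear intensity for a probe set. Which software the authors ran is not given in the sources used here. Values are integers, 30.1% are at most 0, and each array has the same trimmed mean of 200.2, so they were read as scaled signals with background subtracted. No further scaling was applied. Values under the 50th percentile of all values (81) were set to it, log2 was taken, and the 7253 probe sets above it on at least 2 arrays were tested, without 66 control probe sets. Folds are between means of log2 values, not of intensities. A fold whose dimmer side has an array at this floor is given as at least that fold.

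Tests used limma 3.58.1 in R 4.3.3, fitting all 4 groups together, with 7 two-sided comparisons. P-values were adjusted by the method of Benjamini and Hochberg across the probe sets tested, with a threshold of 0.05. The 95% intervals come from the same fit. Symbols come from the platform annotation, where 10855 probe sets name 1 gene, 396 several and 1237 none. Pools are separate samples per the series' design, and their number limits the precision. An exact permutation test of 2 arrays against 2 cannot go below p = 0.333 and was not used. The method was tested on simulated data. Members and gene lists were chosen with earlier results of these data known. Named genes are all members, the 4 genes of each list with the smallest p in the germinal centre mean, those called among germinal centre groups, and the 3 profiles most like each called member, and further genes of the lists were named after their values were seen.

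Alternatives were other floors, a pseudocount of 64, quantile and median scaling, other filters, array weights, a fit of the compared arrays alone, a robust prior with a trend, the replicate number as a block, the Gapdh ratio as a covariate, and leaving out each array in turn.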

Additional observations from a re-analysis of the deposited data

How the results depend on the processing

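In the germinal centre mean against resting, the falls of Irf1 and Irf9 were called in 19 of 19 alternatives, with log2 differences from -0.97 to -0.81 for Irf1 and from -3.03 to -1.96 for Irf9. The number of member probe sets called against resting was 2 in TD d4, 3 in TD d10 and 2 in TI d4. Fitted on the compared arrays alone, which was not done for the germinal centre mean, it was 0 in each. With the floor at the 40th percentile it was 0, 1 and 1 in that order. With array weights and with the Gapdh ratio as a covariate it was 1 in TD d4 and 1 in TD d10, and with a pseudocount it was 1 in TI d4. With the replicate block it was 1 in TD d4 and 1 in TD d10. Leaving out 1 array gave 1 to 2 in TD d4, 1 to 2 in TD d10 and 1 to 2 in TI d4, the lone array of a group being taken to vary like the others. Among germinal centre groups 0 members were called under every alternative run. Of 1098 member values under alternatives 55 had the opposite sign, 0 of them past the threshold in either setting. Across groups, same-numbered arrays had deviations from their group means that correlated at -0.22 to 0.12, so the numbers were not taken as pairs. The causes of these changes were not tested. Signal near the background limits Irf9 in germinal centre B cells and 1 probe set of Irf3.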
